A study of Tupaia belangeri with 6 samples.

Results

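BCAS1-positive oligodendrocyte precursors made up 1707 of 2897 precursor nuclei, among 37603 nuclei sequenced from the hippocampus of 6 tree shrews (TSs; Tupaia belangeri). A nucleus counted as a precursor when at least 200 genes were detected in it and when its unique molecular identifiers (UMIs, each 1 captured RNA molecule) met 3 conditions. At least 1 UMI came from PDGFRA or VCAN, at least 2 came from PDGFRA, VCAN and LHFPL3 together, and none came from MOG, AQP4, PTPRC, GAD1 or NEUROD6. A precursor was BCAS1-positive with at least 1 BCAS1 UMI, and the other 1190 precursors, with none, were the comparison. The nuclei were chosen by their measured UMIs of these 9 genes, so their levels are described and not tested, with the exception of BCAS1 over all precursors, whose choice did not use it.

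The libraries came from 3 control TSs and 3 TSs with Alzheimer's-like pathology (ALP TSs), 1 animal each. All were naturally aged animals of 1 colony with no transgene or treatment named. ALP TSs had been picked for poor performance in a pipeline maze, a timed run through tubes, and controls were matched to them on age. The sex and age of single animals were not used here, and each group holds only 3 animals, so any other difference between the animals cannot be told apart from the maze grouping. Members numbered 540 of 831 precursors in control 1, 147 of 255 in control 2 and 325 of 555 in control 3. They numbered 166 of 332 in ALP 1, 309 of 507 in ALP 2 and 220 of 417 in ALP 3. Whole libraries held 19182981 to 35898940 UMIs. The median depth of members was 2205.5, 2128 and 2242 UMIs in controls 1 to 3, against 1671, 1852 and 1639 in ALP 1 to 3, so members were shallower in every ALP library than in any control library. A single cell barcode among precursors occurred in more than 1 library.

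Oligodendrocyte precursors are the dividing glia of the adult brain that carry the PDGF receptor encoded by PDGFRA and a coat of proteoglycans such as versican, the product of VCAN. They pass through a short-lived committed, premyelinating stage before they make myelin. BCAS1 encodes a protein known from newly formed and early myelinating oligodendrocytes. ENPP6, a choline phosphodiesterase, and TCF7L2, a transcription factor, are used as markers of the same stage, and MOG, a surface glycoprotein of myelin, appears late.

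The label was checked with genes outside the rule. Levels are given throughout as UMIs per 10000 UMIs of the nuclei summed in a library. The other classes, such as MOG-positive oligodendrocytes, had at least 1 UMI of the gene that names them. They had none of PDGFRA, VCAN, LHFPL3 or the other excluded genes. Nuclei holding RNA of these precursor genes were thus left out of them beforehand. In nuclei with a MOG UMI that met the precursor thresholds, PTPRZ1 was at 6.25. PTPRZ1, a receptor phosphatase of precursors, stood at 32.1 ± 4.04 in members (SD, n = 6 libraries), against 1.11 ± 0.271 in MOG-positive oligodendrocytes and 8.27 ± 1.28 in AQP4-positive astrocytes. PCDH15, a protocadherin, stood at 25.0 ± 3.92 in members, against 1.55 ± 0.783 in the oligodendrocytes and 1.15 ± 0.450 in the astrocytes. OLIG1, a transcription factor of the lineage, stood at 5.07 ± 1.98 in members and 0.972 ± 0.440 in MOG-positive oligodendrocytes. The values of these markers matched the label of a precursor. CSPG4, the NG2 proteoglycan often used to mark these cells, had a UMI in 0.586% of members. Its like-named copy in the annotation, CSPG4li1, had one in 10.4% of members, at a level of 0.208 to 0.690 by library, so reads of this gene may have been split as well. GPR17 and NEU4, both known from committed precursors, were listed at 0 in every nucleus of the series, so nothing can be said from them.

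Most members carried very little BCAS1. There were 728 members with 1 BCAS1 UMI, 440 with 2 and 496 with 3 to 9, and 43 members had 10 or more, up to 53. The 43 nuclei, 2.52% of members, held 21.0% of the 4579 BCAS1 UMIs counted in members. The level of BCAS1 in members was 9.58, 10.2 and 8.66 in the control libraries and 12.2, 13.8 and 10.4 in the ALP libraries. Free RNA in a droplet can give a stray UMI, and 2.44% of AQP4-positive astrocytes, 2.78% of PTPRC-positive microglia and 2.80% of NEUROD6-positive neurons had a BCAS1 UMI. Their median depths were 2023.5, 1088 and 7564 UMIs. Of MOG-positive oligodendrocytes, with a median depth of 1417.5 UMIs, 41.2% had a BCAS1 UMI. Every member has a BCAS1 UMI by the rule, so the share to set beside these is the one over all precursors, which was 50 to 65.0% by library. A single BCAS1 UMI does not show expression in any 1 nucleus, and a count of 0 does not show its absence. If all precursors of a library shared 1 BCAS1 rate, counting error alone would leave 24.6 to 40.7% without a BCAS1 UMI. The observed share was 35.0 to 50% by library. Within the density limit explained below, these ranges were 13.6 to 29.0% and 27.9 to 42.0%. Many BCAS1-lacking nuclei may thus hold BCAS1 RNA that was not captured. A like-named copy in the annotation, BCAS1li1, had a UMI in 22.1% of members, so reads may have been split between the copies and BCAS1 counts are uncertain to that extent. BCAS1li1 was at 1.25, 0.436 and 3.97 in the members of control libraries and 0.263, 0.558 and 0.104 in those of ALP libraries. The levels of both copies summed to 10.8, 10.6 and 12.6 in controls and 12.5, 14.3 and 10.5 in ALP TSs, so the groups overlapped in the sum although they did not for BCAS1 alone. BCAS1li1 was also present in BCAS1-lacking nuclei. Within the density limit it was there at 0.596, 0.446 and 1.88 in controls and 0.335, 0.180 and 0.348 in ALP TSs.

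The 43 members with 10 or more BCAS1 UMIs differed from the other 1664 members in many genes at once. The limit of 10 was set after the data had been seen and BCAS1 is part of the rule, so the values that follow are a description with no test. An ENPP6 UMI was present in 27 of the 43 (62.8%), and in 22 of the 1664 (1.32%). The 27 were spread over all libraries, with 3, 4 and 4 in the controls and 5, 8 and 3 in the ALP libraries. ENPP6 stood at 4.23 in the 43 nuclei pooled and at 0.0589 in the other members. Median depth was 2606 UMIs in the 43 and 1992 in the others, and the part of depth in these differences was not tested. The 43 nuclei held 153643 UMIs in all, of which 22171 came from 1 nucleus, and a gene with no count there could still be present at up to 0.195 (3 counts, counting error only).

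FRMD4A, a scaffold protein of cell polarity, stood far apart in these nuclei. It was at 113 in the 43 nuclei and 5.30 in the other members. By library it was 107, 58.7 and 132 in the controls and 129, 147 and 168 in the ALP libraries, and the other members lay between 4.69 and 6.996 in every library. EPB41L2, a membrane-cytoskeleton linker, was at 16.6 against 0.803. NFASC, the adhesion molecule neurofascin of the axon-glia contact, was at 16.1 against 1.28. FYN, a kinase that acts early in myelination, was at 17.3 against 1.54, and TCF7L2 was at 12.4 against 1.22. TMEM108 was at 33.5 against 2.13, TNS1, a focal adhesion protein, at 3.51 against 0.335, and EPHB1, an ephrin receptor, at 3.51 against 0.370. Each of these genes was higher in the 43 in 6 of 6 libraries.

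Genes of membrane and lipid synthesis were also higher in these nuclei. UGT8, which makes the myelin lipid galactosylceramide, was at 3.12 against 0.697, and CNP, a myelin enzyme, at 1.11 against 0.285. HMGCS1, an enzyme of cholesterol synthesis, was at 1.56 against 0.224. ST18, a transcription factor abundant in mature oligodendrocytes, was at 10.2 against 1.99. All 4 were higher in 6 of 6 libraries. The late genes were not: ERMN had 0 UMIs in the 43 nuclei, RNF220 had 2 and HAPLN2 had 6.

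Precursor genes split in the 43 nuclei. PDGFRA was at 0.911 against 3.68 in the other members, and PTPRZ1 at 15.9 against 33.2. CSPG5, a proteoglycan, was at 0.195, the level of 3 counts, against 1.18. XYLT1, which starts proteoglycan sugar chains, was at 4.04 against 9.73, and CNTN5, an adhesion molecule, at 0.325 against 4.27. These 5 genes were lower in 6 of 6 libraries. PDGFRA had only 14 UMIs and CNTN5 5 in the 43 nuclei. At such counts, CSPG5 included, the direction in single libraries is uncertain. VCAN was at 14.3 against 13.1. SOX6, a transcription factor that holds precursors back, was at 30.3 against 10.8, TNR, the matrix protein tenascin-R, at 38.3 against 22.8, and GRIK2, a kainate receptor subunit, at 57.3 against 17.5, each higher in 6 of 6 libraries.

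The 43 nuclei also differed from mature oligodendrocytes. MOG-positive oligodendrocytes, as means of 6 libraries, had FRMD4A at 8.51, NFASC at 2.76, FYN at 0.657, TCF7L2 at 0.611 and ENPP6 at 0.290, all below the pooled levels of the 43 nuclei. They had ST18 at 23.9, RNF220 at 11.6 and HAPLN2 at 4.76, all above the 43. By library, the 43 nuclei were 10 of 540 members in control 1, 7 of 147 in control 2 and 6 of 325 in control 3, and 6 of 166 in ALP 1, 11 of 309 in ALP 2 and 3 of 220 in ALP 3. As shares of members these were 1.85, 4.76 and 1.85% in controls and 3.61, 3.56 and 1.36% in ALP TSs, and the groups overlapped.

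The genes did not climb evenly with BCAS1. In precursors with at least 20 UMIs of PDGFRA, VCAN and LHFPL3 per 10000, a limit explained below, the pooled FRMD4A level was 4.14 with 0 BCAS1 UMIs, 4.03 with 1, 3.73 with 2, 4.94 with 3 to 5, 5.71 with 6 to 9 and 114 with 10 or more. NFASC went 1.25, 1.29, 1.16, 1.38, 1.54 and 17.0 over the same steps, and PDGFRA went 3.88, 4.38, 4.34, 4.00, 3.497 and 1.06. These 3 genes were nearly level up to 9 BCAS1 UMIs and moved at 10 or more. SOX6 climbed earlier, through 9.69, 11.1, 12.4, 13.1, 17.8 and 33.8. The steps held 770, 687, 419, 410, 72 and 40 nuclei, and a nucleus with more UMIs reaches a higher step more easily.

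**Figure D1:**
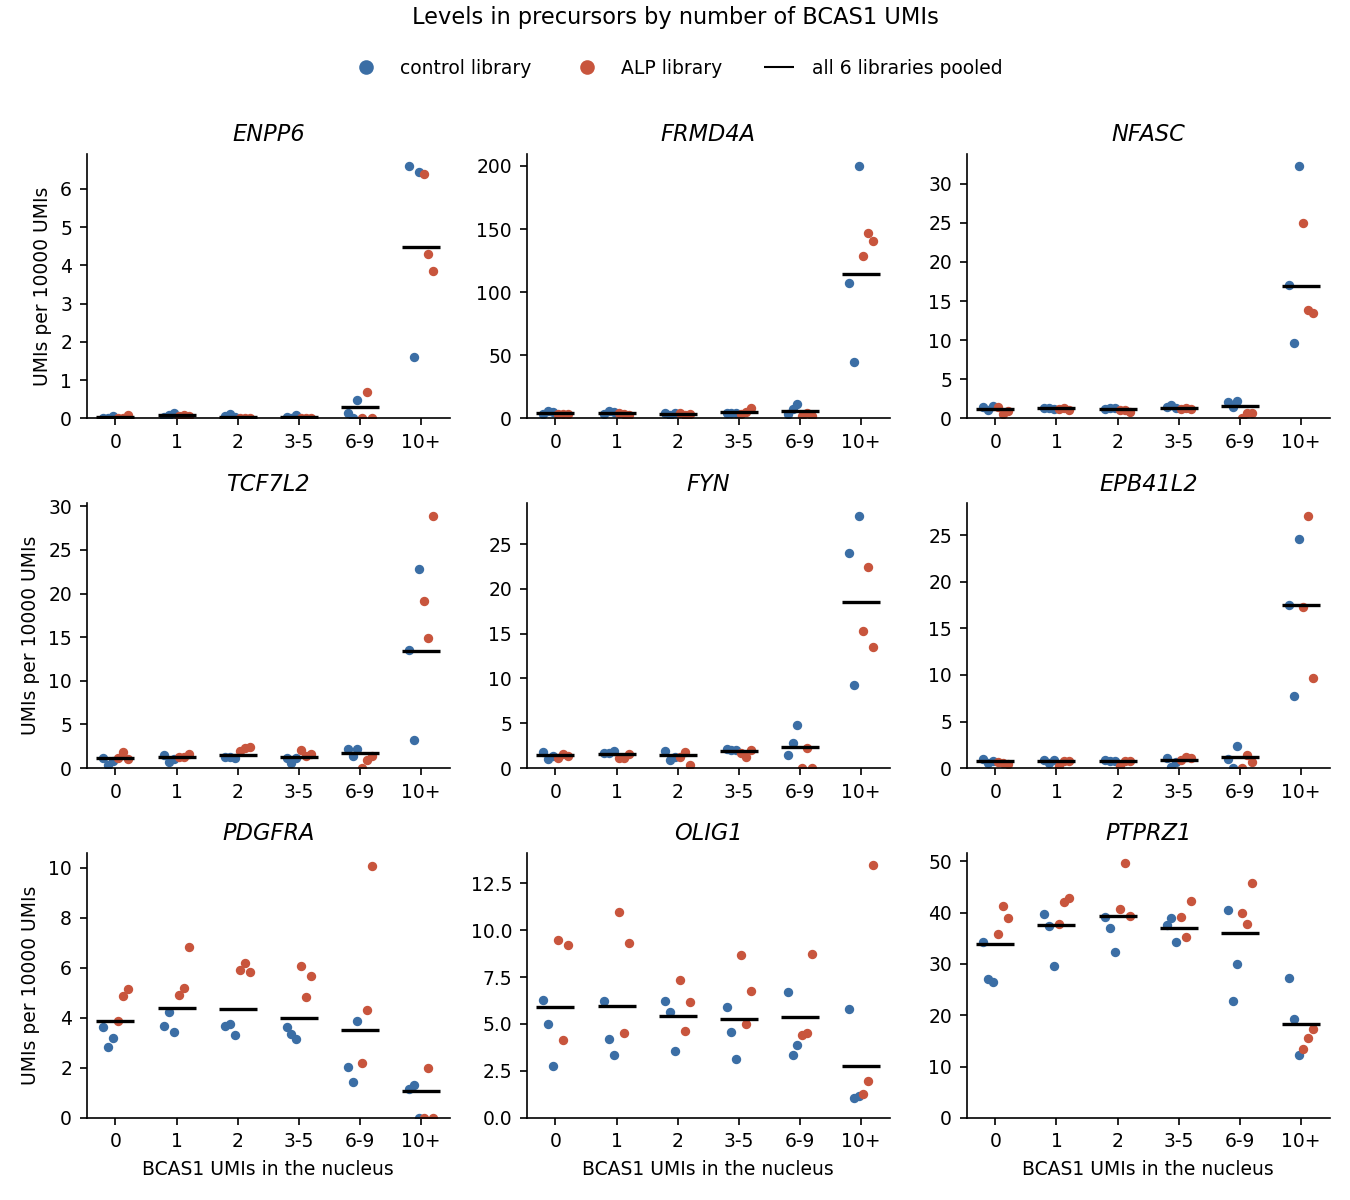
Levels of 9 genes (UMIs per 10000 UMIs) in precursors with at least 20 precursor-gene UMIs per 10000, by the number of BCAS1 UMIs in the nucleus. Each point is the sum of the nuclei of 1 library in that step, and the short bar is the sum over the 6 libraries. FRMD4A is near 4 up to 2 BCAS1 UMIs and at 114 with 10 or more, while PDGFRA is at 1.06 in the last step. ENPP6 and PDGFRA are at 0 in some libraries.

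Members were next compared with precursors lacking BCAS1 UMIs, with the UMIs summed per library and kind of nucleus and the library kept as a block. A gene was called at an adjusted p below 0.05 with a log2 fold change beyond 0.25. In all precursors, 2428 of 7901 genes tested outside the rule were called (30.7%; edgeR's quasi-likelihood test with Benjamini-Hochberg adjustment), 1192 higher (15.1%) and 1236 lower (15.6%) in members. TCF7L2 was higher by 1.76 ± 0.132 (log2, SE), adjusted p = 6.3e-12, and PTPRZ1 by 1.24 ± 0.0869, adjusted p = 1.66e-12. LAMP5, an interneuron marker, and ZNF385D, a zinc finger gene, fell by 3.28 each and EPHA3, an ephrin receptor, by 3.00, among the 10 largest falls once antisense genes and like-named copies were set aside. The call count fell to 464 of 5574 (8.32%; 3.95% higher and 4.38% lower in members) when nuclei of both kinds were matched on depth.

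The nuclei without BCAS1 were not all of the same kind. The density of precursor genes, the UMIs of PDGFRA, VCAN and LHFPL3 per 10000 UMIs of a nucleus, was below 20 in 420 of the 1190 BCAS1-lacking nuclei (35.3%) and in 79 of the 1707 members (4.63%). The 420 were deep, with a median of 5877 UMIs, and the other 770 had 1729.5. In the 420, PTPRZ1 was at 1.95 and OLIG1 at 0.173, and ERBB4, a neuregulin receptor abundant in interneurons, was at 56.7 ± 10.5, ADARB2 at 38.7 ± 18.2 and NRXN3 at 43.2 ± 6.31 (SD, n = 6). In 39 GAD1-positive neurons the same 3 genes were at 88.2 ± 41.9, 32.1 ± 48.4 and 53.2 ± 23.2. Of 6 inhibitory neuron markers, 4 were detected in the 420, with DLX6 most abundant at 1.06 and a summed level of 3.94, 2.36 and 2.89 in the controls and 2.59, 1.92 and 2.37 in the ALP libraries. GAD2 and SLC32A1 were at 0 in the whole series. In members, these markers summed to 0.686 to 1.497. The BCAS1-lacking set thus held far more nuclei of low density than the members did, and a limit of 20 was set after this had been seen. The part of interneuron RNA in the comparison over all precursors was not tested.

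**Figure D2:**
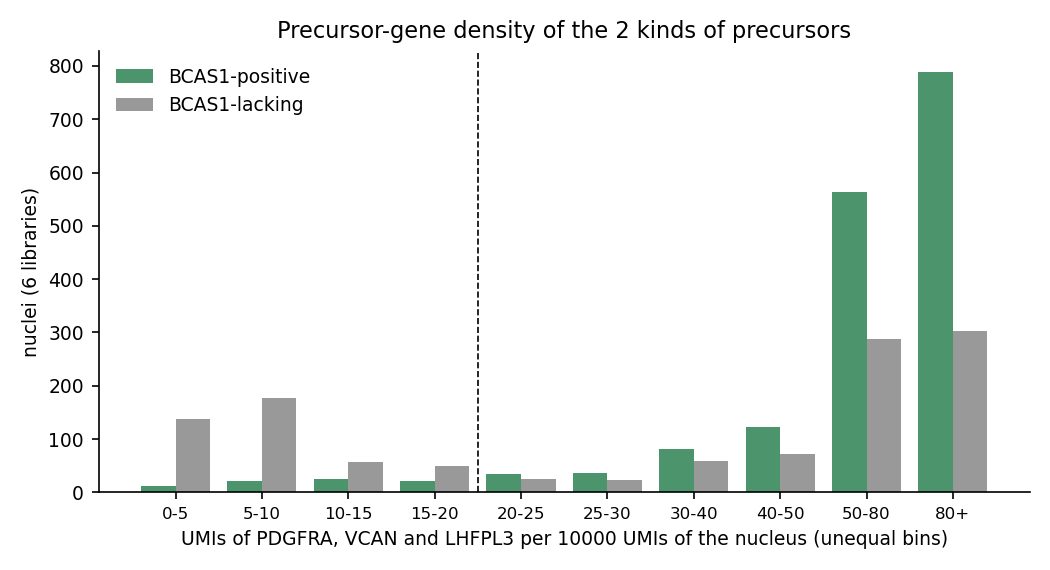
Number of nuclei (y axis) by precursor-gene density (x axis, UMIs of PDGFRA, VCAN and LHFPL3 per 10000 UMIs, unequal bins) in BCAS1-positive and BCAS1-lacking precursors of all 6 libraries. The dashed line is the limit of 20. Left of it lie 79 members and 420 BCAS1-lacking nuclei.

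Within the limit, 1628 members faced 770 nuclei lacking BCAS1, and 73 of 5248 genes were called (1.39%), 26 higher (0.495%) and 47 lower (0.896%) in members. Of the 73, 66 had also been called over all precursors. FRMD4A was higher by 0.97 ± 0.0970 (log2, SE), adjusted p = 6.68e-10, whereas over all precursors it was lower by -0.33. TCF7L2 was higher by 0.70 ± 0.139, adjusted p = 0.000924, FYN by 0.63 ± 0.128, adjusted p = 0.00153, and NFASC by 0.56 ± 0.141, adjusted p = 0.0205. ST18 rose by 0.85 ± 0.151, adjusted p = 0.000215, and EPB41L2 by 0.93 ± 0.167, adjusted p = 0.000221. All 6 were higher in 6 of 6 libraries.

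These 6 rises were computed again without the 40 nuclei that had 10 or more BCAS1 UMIs. Then 48 of 5040 genes were called (0.952%), 10 higher and 38 lower, 45 of which were among the 2428. FRMD4A then differed by 0.02 ± 0.0885, NFASC by 0.02 ± 0.146, EPB41L2 by 0.14 ± 0.177, FYN by 0.18 ± 0.132 and TCF7L2 by 0.30 ± 0.146 (log2, SE), and none of the 5 passed the test. ST18 still rose by 0.59 ± 0.152, adjusted p = 0.0409. Leaving out all 43 nuclei with 10 or more BCAS1 UMIs from the comparison over all precursors left 2410 calls, a change of under 1.5 times.

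Other genes differed with or without these nuclei. SOX6 was at 11.6, 7.65, 6.92, 10.3, 10.8 and 9.71 in the BCAS1-lacking nuclei of controls 1 to 3 and ALP 1 to 3, and at 14.9, 11.5, 9.98, 14.6, 14.5 and 12.1 in members. It was higher in members of every library, by 0.41 ± 0.0678 (log2, SE), adjusted p = 5.01e-05, and by 0.31 ± 0.0655, adjusted p = 0.0038, without the 40. NRCAM, an adhesion molecule, rose by 0.34 ± 0.0615, adjusted p = 0.000299, and GRIA4, an AMPA receptor subunit, by 0.32 ± 0.0757, adjusted p = 0.01. Without the 40 nuclei these were 0.32 and 0.33, and both stayed called. GRIA4 had not passed the test over all precursors, where it was 0.14 ± 0.0828.

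GRIA1, GRIN2A, GRIN2B, EPHA3, CNR1 and ADARB2 fell. GRIA1, another AMPA receptor subunit, was at 2.01, 4.76, 3.94, 2.29, 2.16 and 1.31 in the BCAS1-lacking nuclei and at 1.604, 2.45, 3.27, 1.46, 1.45 and 0.867 in members, in the same order of libraries. It fell in 6 of 6 libraries, by 0.53 on the log2 scale (SE 0.112), adjusted p = 0.00259. The NMDA receptor subunits GRIN2A and GRIN2B fell by 0.65 (SE 0.146) and 0.54 (SE 0.124), adjusted p = 0.00544 and 0.00773, and each was lower in 5 of 6 libraries. EPHA3 fell by 1.97 (SE 0.232), and CNR1, the cannabinoid receptor of interneurons, by 1.78 (SE 0.252). ADARB2 fell by 0.75 (SE 0.0925), from 21.3 ± 6.85 in BCAS1-lacking nuclei to 12.6 ± 2.92 in members (SD, n = 6). All 6 stayed called without the 40 nuclei. Control 2 held the highest BCAS1-lacking level of EPHA3, at 4.01 against 0.305 to 1.25 elsewhere, and of GRIN2A, at 6.39 against 0.740 to 2.29. Inhibitory neuron markers summed to 1.27 in these BCAS1-lacking nuclei and 1.02 in members (means of 6 libraries), and the part of other cells' RNA in the falls was not tested.

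**Figure D3:**
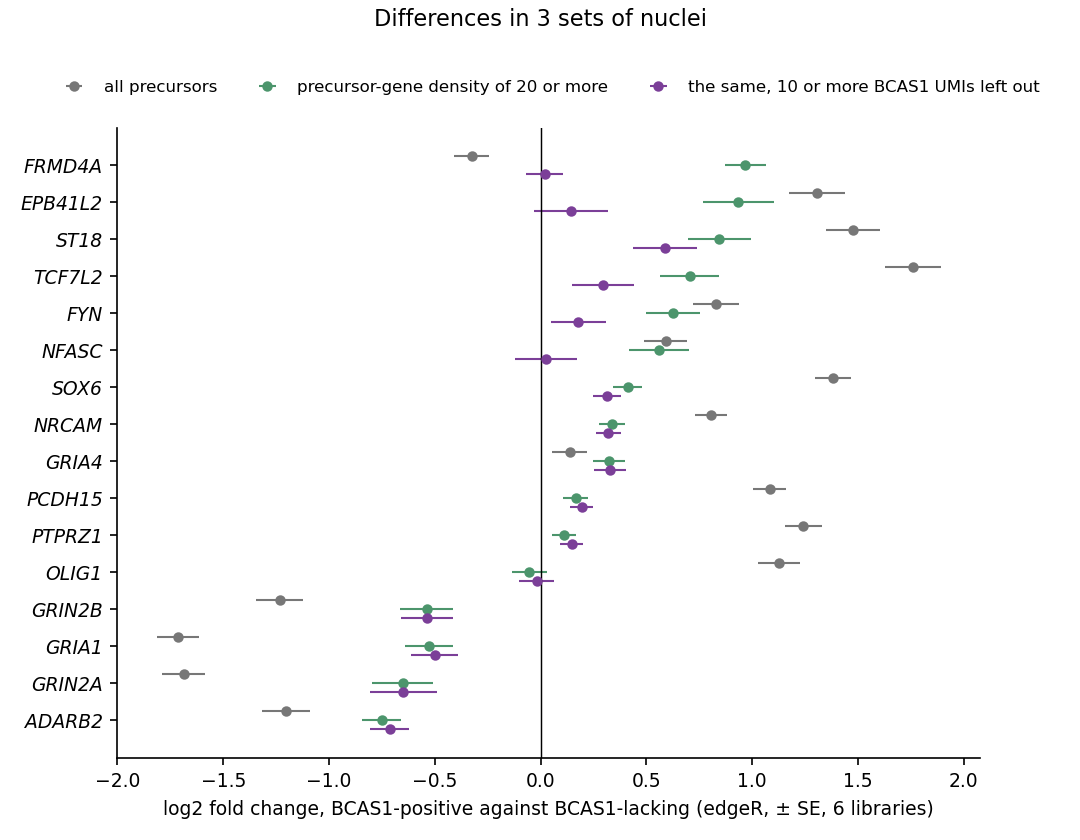
Log2 fold change of 16 genes in BCAS1-positive against BCAS1-lacking precursors (x axis, edgeR estimate ± SE, 6 libraries) in all precursors, in those with a density of at least 20, and in the same without nuclei of 10 or more BCAS1 UMIs. FRMD4A goes from -0.33 to 0.97 to 0.02, and SOX6 stays at 0.41 and 0.31 within the density limit.

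Lists of genes gave the same contrast of the sets. Of 22 genes of precursor identity outside the rule, 20 were tested, and 17 were higher over all precursors, where 15.1% of all genes tested were higher and 15.6% lower (median log2 fold change 1.05, against -0.00565 over all genes tested). Within the density limit 1 of 20 was higher, SOX6, where 0.495% of all genes tested were higher and 0.896% lower, and the median was 0.104 against -0.00799 over all genes. PTPRZ1 was then 0.11 ± 0.0564, PCDH15 0.17 ± 0.0575, OLIG1 -0.05 ± 0.0825 and SOX10 0.22 ± 0.162, none past the test. Of 16 committed and premyelinating genes, 7 were high enough to be tested within the limit, and TCF7L2 and FYN rose (median 0.422). ITPR2, a calcium channel of the endoplasmic reticulum, was 0.25 ± 0.0803, UGT8 0.48 ± 0.180 and CNP 0.42 ± 0.269, and these did not pass. Without the 40 nuclei none of 6 rose (median 0.217, against -0.00113 over all genes). Of 16 genes of mature myelin, 5 were tested and ST18 rose (median 0.293), while PLLP, a membrane protein of myelin, was 0.66 ± 0.201.

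Against the same shares of 0.495% higher and 0.896% lower, among 15 tested receptor and channel genes GRIA4 rose, GRIA1, GRIN2A and GRIN2B fell, and 11 did not pass (median -0.0123). Of 14 matrix and adhesion genes NFASC and NRCAM rose (median 0.0997). Of 6 tested cytoskeleton genes DNM3, a dynamin, rose by 0.26 ± 0.0694, adjusted p = 0.0332. None of 6 differentiation signalling genes, 4 astrocyte markers, 2 excitatory and 2 immature neuron markers, 1 inhibitory neuron marker, 1 cell cycle gene or 1 immediate-early or heat shock gene passed within the limit. No gene of the microglia, endothelial, mural and fibroblast or cholesterol lists was high enough to be tested there. Over all precursors, against 15.1% higher and 15.6% lower among all genes, 4 receptor genes rose and 6 fell of 16 (median -0.11), 11 matrix genes rose of 14 (median 0.433), and of the 3 inhibitory neuron markers tested SST and DLX6 were lower in members.

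The next question was whether BCAS1-positive nuclei were rarer or commoner in ALP TSs. They were 65.0, 57.6 and 58.6% of precursors in the control libraries and 50, 60.9 and 52.8% in the ALP libraries. The means were 60.4 ± 4.00% and 54.6 ± 5.69% (SD, n = 3), a difference of -5.83 percentage points with overlapping groups (exact permutation p = 0.3, two-sided, where 3 against 3 libraries cannot give less than 0.1). Members were shallower in the ALP libraries, and fewer nuclei of a kind and less RNA per nucleus cannot be told apart in such a share. Drawing 1000 UMIs from each precursor of at least that depth gave 39.2 ± 3.39% and 39.8 ± 4.21%, a difference of 0.585 points (exact permutation p = 0.8). With 2000 UMIs drawn the means were 49.8 and 37.2% (exact permutation p = 0.2). The nuclei that remained there numbered 511, 163 and 396 in the controls and 111, 213 and 118 in ALP TSs. They include nuclei with a density below 20, whose median depth was 5877 UMIs in the BCAS1-lacking set. The part of low-density nuclei in this difference was not tested. Within the density limit, the shares with 2000 UMIs drawn were 68.4, 68.3 and 62.9% in the controls and 66.3, 72.8 and 63.7% in ALP TSs, with the groups overlapping. These shares rest on the deepest nuclei: 412, 95 and 304 remained in the controls and 51, 125 and 53 in ALP TSs, while 311, 92 and 154 and then 218, 290 and 293 were too shallow and left out. With 1000 UMIs drawn from all precursors, 2 to 18 per library were left out. Of all nuclei in a library, members were 5.04 ± 1.04% in controls and 3.84 ± 0.536% in ALP TSs (exact permutation p = 0.2).

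**Figure D4:**
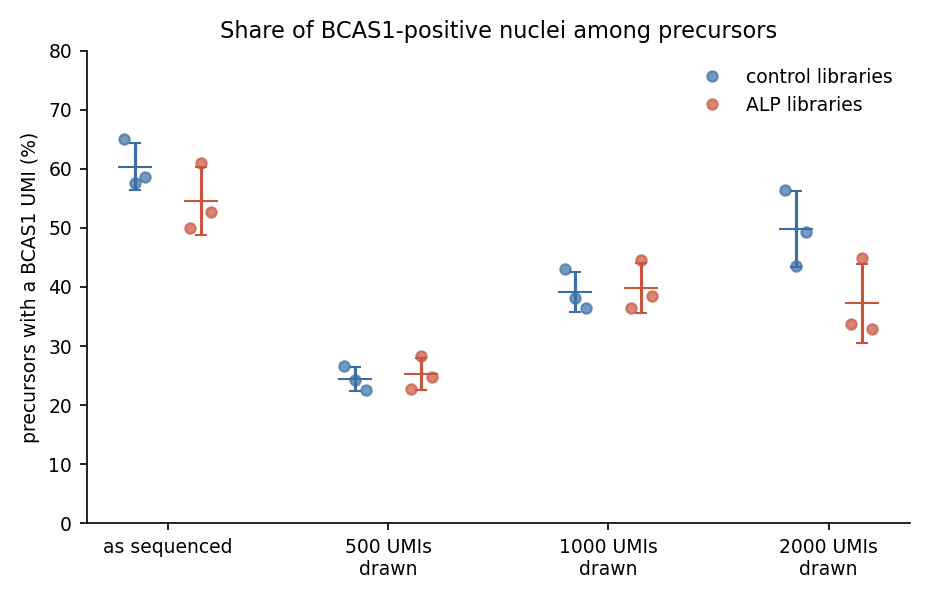
Share of precursors with a BCAS1 UMI (y axis, %) as sequenced and with 500, 1000 or 2000 UMIs drawn from each nucleus. Points are the 3 control and 3 ALP libraries, and bars are the mean ± SD. The groups overlap at every setting, with means of 60.4 and 54.6% as sequenced and 39.2 and 39.8% at 1000 UMIs.

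Within members, 1 of 7746 genes was called between ALP and control TSs (0.0129%; edgeR). CST3, which encodes the protease inhibitor cystatin C, was at 6.38, 6.26 and 5.95 in the control libraries and at 16.7, 13.5 and 17.3 in the ALP libraries. All ALP libraries lay above all controls. The log2 fold change was 1.39 ± 0.150 (SE), adjusted p = 0.00911. The call was lost when 1 of 3 libraries was left out, with an adjusted p of 0.116 without control 3, 0.135 without ALP 1 and 0.112 without ALP 3 (edgeR). The number of calls also moved, to 133 genes without control 1 and 181 without control 2.

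CST3 was not raised in members alone. In BCAS1-lacking precursors within the density limit it was at 7.43, 8.32 and 7.73 in controls and 25.6, 18.8 and 24.5 in ALP TSs. Over all BCAS1-lacking precursors its log2 fold change was 1.63 ± 0.225, adjusted p = 0.0284, and the ALP effect did not differ detectably between the kinds of precursors (difference -0.20 ± 0.174 on the log2 scale, adjusted p = 1.0, interval -0.54 to 0.14). The groups overlapped in AQP4-positive astrocytes, at 20.1, 11.3 and 8.61 in controls and 24.4, 16.1 and 28.4 in ALP TSs. They also overlapped in MOG-positive oligodendrocytes, PTPRC-positive microglia and NEUROD6-positive neurons. CST3 is abundant in astrocytes. The 8 astrocyte markers outside the rule, all detected, summed to 6.28, 6.53 and 6.07 in the members of control libraries and 6.41, 6.76 and 6.89 in those of ALP libraries. SLC1A3, a glutamate transporter, was the most abundant of these, at 2.99, and AQP4 was at 0 by the rule. Over all BCAS1-lacking precursors, SLC1A3 was at 1.52, 1.01 and 1.15 in controls and 1.59, 2.15 and 2.34 in ALP TSs. These groups did not overlap (log2 0.79 ± 0.203, SE), but the gene did not pass the test. SLC1A2, another glutamate transporter, overlapped there (log2 0.02 ± 0.455). The part of astrocyte RNA in the CST3 difference was not tested. Among the 43 members with 10 or more BCAS1 UMIs, CST3 was lower than in the other members in 6 of 6 libraries, at 4.04 against 9.58 pooled.

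**Figure D5:**
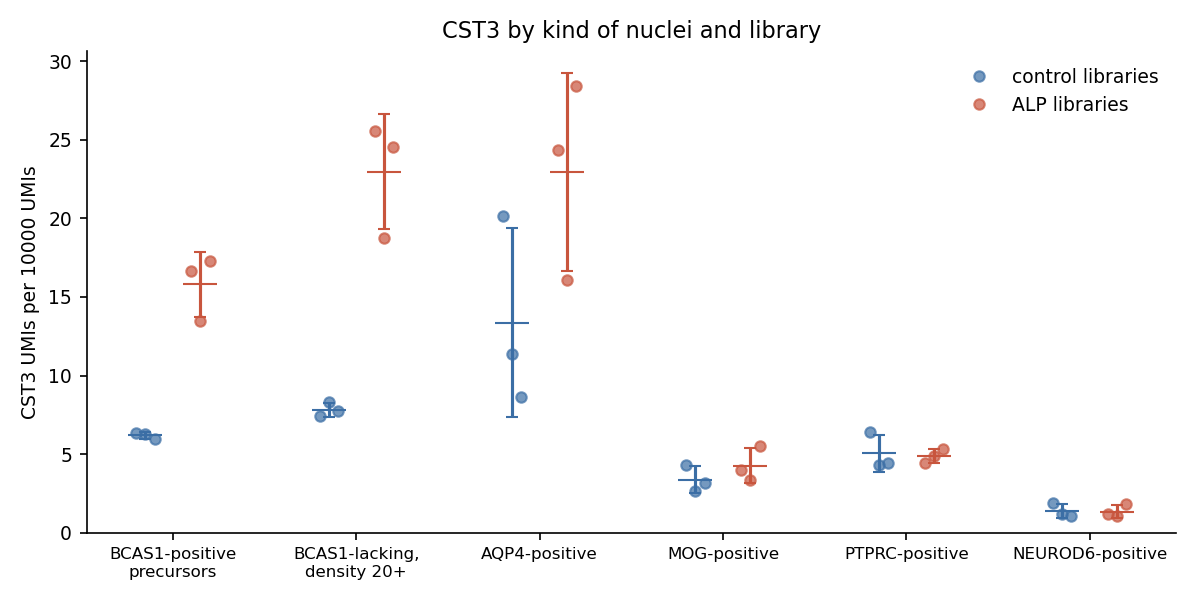
CST3 level (y axis, UMIs per 10000 UMIs) by kind of nucleus. Points are the 3 control and 3 ALP libraries, and bars are the mean ± SD. ALP libraries lie above all controls in both kinds of precursors and overlap with them in the other 4 classes.

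No member of the 17 lists passed the test between ALP and control TSs in members. The 20 tested genes of precursor identity had a median log2 fold change of 0.0707 and the 9 committed genes 0.231, against -0.0102 over all genes tested. TCF7L2 was at 1.46, 1.06 and 1.51 in controls and 2.19, 2.02 and 1.79 in ALP TSs. These groups did not overlap, but the adjusted p was 0.165 for a log2 fold change of 0.59 ± 0.176. ENPP6 was at 0.159, 0.208 and 0.222 in controls and 0.322, 0.257 and 0.146 in ALP TSs, with overlap. SOX6 and PTPRZ1 also overlapped, with log2 fold changes of 0.20 ± 0.180 and 0.23 ± 0.135. PDGFRA, a gene of the rule, was at 3.24, 2.64 and 2.92 in controls and 4.39, 4.57 and 4.89 in ALP TSs.

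Some genes came near the threshold. CD9, a tetraspanin, was at 0.531, 0.395 and 0.792 in controls and 1.70, 1.43 and 1.23 in ALP TSs (log2 1.33 ± 0.247, adjusted p = 0.0690). CMTM5, a membrane protein of the lineage, was at 1.63, 1.31 and 1.18 against 3.48, 2.32 and 3.39 (log2 1.18 ± 0.201, adjusted p = 0.0690). ITM2B, a membrane protein that binds the amyloid precursor, was 0.93 ± 0.169 and DDX17, an RNA helicase, 0.72 ± 0.150 on the log2 scale. SKA2, a kinetochore gene, was at 2.24, 2.29 and 3.11 against 1.38, 1.30 and 1.29 (log2 -0.92 ± 0.185, adjusted p = 0.0725). Within the density limit 30 of 6895 genes were called (0.435%), 7 higher (0.102%) and 23 lower (0.334%), and these 5 genes were among them. In BCAS1-lacking precursors CD9 was 1.69, CMTM5 1.25, ITM2B 0.81 and DDX17 0.68 on the log2 scale, none past the test. SKA2 fell there by 1.28, adjusted p = 0.0370 (edgeR). SKA2 was also lower in every ALP library than in any control library in NEUROD6-positive neurons, at 6.46, 4.22 and 8.32 against 2.78, 2.62 and 2.42.

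The other comparisons gave few calls. In BCAS1-lacking precursors 63 of 8160 genes were called between ALP and control TSs (0.772%; 0.27% higher and 0.502% lower), but 1 of 3970 (0.0252%), CST3, within the density limit. The calls without the limit, those of CST3 and SKA2 included, were all lost without control 3, without ALP 1 or without ALP 3 (877, 1222 and 1042 genes at an unadjusted p below 0.05, edgeR), while 381 were made without control 1, 202 without control 2 and 21 without ALP 2, and DESeq2 called 150. Over all precursors 1 of 11121 was called (0.00899%), again CST3, at 1.46 ± 0.165, adjusted p = 0.0483. Within the density limit 12 genes were called (0.139%; 0.0463% higher and 0.0926% lower). The choice of precursors did not use BCAS1, so it can be compared over all precursors. There, with no density limit, it was at 5.48, 4.69 and 4.44 in controls and 4.95, 6.80 and 4.74 in ALP TSs, with overlap and a log2 fold change of 0.24 ± 0.157, adjusted p = 0.452 (interval -0.07 to 0.55). The ALP effect differed between the kinds of precursors in 2 of 9440 genes (0.0212%). NTNG1, an axon guidance protein, had a difference of 1.14 ± 0.208, adjusted p = 0.0286, and fell from 2.89, 6.03 and 5.77 to 2.27, 2.23 and 3.53 in BCAS1-lacking nuclei, though that fall did not pass the test on its own (adjusted p = 0.187). None of the 6541 genes tested for this within the density limit was called (295 at an unadjusted p below 0.05; DESeq2, over all precursors, also called 0).

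Nuclei at the edges of the rule were counted as well. Of 161 nuclei with exactly 2 UMIs of the precursor genes, just inside the rule, 8.70% had BCAS1 and PTPRZ1 was at 1.46. Of 327 with exactly 1, just outside, 5.50% had BCAS1 and PTPRZ1 was at 1.12. With 3 or more, 61.9% of 2736 nuclei had BCAS1 and PTPRZ1 was at 25.2. A further 1026 nuclei met the precursor thresholds but held a UMI of an excluded gene, and 668 of these had BCAS1. MOG was the commonest, in 591 nuclei of median depth 5079 UMIs, of which 72.6% had BCAS1. PTPRZ1 was at 6.25 in those 591, below its level in members.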

How the data were processed

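Nuclei of the tree shrew hippocampus had been sequenced with a droplet 3′ kit, 1 library per animal. The authors deposited raw UMI counts per gene and nucleus, made with Cell Ranger against the TreeshrewDB genome and annotation (version 3.1.0 per the submitters' processing notes, 6.1.2 per the file headers). The build, the use of strand and any doublet removal were not given in the sources used here, and no doublet caller was run. The annotation held 83605 features, 3 of them mitochondrial by name. Reads of near-identical copies, antisense genes and overlapping genes cannot be told apart with certainty.

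Counts of the nuclei of a kind were summed per library, which is the replicate. The main test was edgeR's quasi-likelihood test (edgeR 4.0.16, R 4.3.3) with TMM scaling, genes filtered at a minimum count of 10 and Benjamini-Hochberg adjustment over all genes tested. The SE of a log2 fold change was taken from its F value. The fit of members against BCAS1-lacking precursors had the library as a block. The study's own test worked on single nuclei, and sums per library were used in its place because nuclei are not replicates. DESeq2 1.42.0 was an alternative. Shares were compared by an exact two-sided permutation test over libraries (SciPy 1.17.1). The tests were checked on simulated data. Intervals are 95% and, like limits from a count of 0, do not cover amplification or capture error.

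The members and the gene lists were chosen with earlier results of these data known. Text names come from 17 lists, of whose 195 genes 193 were in the annotation and 16 were at 0 everywhere, and from the 10 largest rises and falls among called genes with plain symbols that went the same way in all libraries or did not overlap between groups. Genes singled out outside these were chosen after their values were seen. 1 listed gene is not reported by name here. Also chosen after seeing the data were the density limit of 20, the group of 10 or more BCAS1 UMIs and the alternatives built on them.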

Additional observations from a re-analysis of the deposited data

Results flagged for a closer look

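The OLIG1 level in members minus that in BCAS1-lacking precursors was 4.616 UMIs per 10000 in ALP 1, far from the other 5 libraries at 1.888 to 2.902. Such a distance marks about 1 in 20 groups by chance, and it was measured over all precursors.

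The ALP effect differed between members and BCAS1-lacking precursors for NTNG1, by 1.14 on the log2 scale, and for FBXO33-AS-2, an antisense gene, by 1.44 (adjusted p = 0.0286 and 0.0348, edgeR's quasi-likelihood test with Benjamini-Hochberg adjustment). FBXO33-AS-2 was at 1.497, 2.02 and 2.04 in the members of control libraries and 4.21, 2.67 and 3.25 in those of ALP libraries. Neither was called within the density limit.

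Outside the comparisons, 668 nuclei met the precursor thresholds and had a BCAS1 UMI but also held a UMI of MOG, AQP4, PTPRC, GAD1 or NEUROD6. Their kind was not tested.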

How the results depend on the processing

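Both shares as sequenced, of precursors and of all nuclei, kept a lower mean in ALP TSs in every alternative run, and their p cannot fall below 0.1 in this design. The share at 1000 UMIs turned from 0.585 to -2.81 points when nuclei over 2500 genes or 5% mitochondrial UMIs were left out, and to -12.6 with 2000 UMIs drawn. Leaving out 1 library gave -1.78 to 2.48, and -2.795 to 1.95 within the density limit, where it was -1.67 without control 3.

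Calls between members and BCAS1-lacking precursors went from 2428 to 1527 with DESeq2, 1276 without those large nuclei, 1321 without the library block, 464 with matched depth, 73 within the density limit, 48 there without 10 or more BCAS1 UMIs and 43 there with matched depth. Leaving out 1 library gave 1958 to 2487 calls, and 58, 65 and 55 within the limit without controls 1 to 3 and 58, 67 and 59 without ALP 1 to 3. Calls between ALP and control in members went from 1 to 79 with DESeq2, 371 with no filter on low counts, 69 without large nuclei and 30 within the limit. Without 1 library they were 0 to 181, and the libraries whose absence gave 0 were control 3, ALP 1 and ALP 3 (705, 1071 and 925 genes at an unadjusted p below 0.05).

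In BCAS1-lacking precursors the 63 calls became 150 with DESeq2, 710 with no filter, 1 within the limit and 0 to 381 without 1 library. Over all precursors the 1 call became 338 with DESeq2, 22 with upper quartile scaling, 1164 with no filter, 236 without large nuclei, 12 within the limit and 0 to 531 without 1 library. The 2 differences in ALP effect became 9 with no filter, 0 to 7 without 1 library, and 0 with DESeq2 (79 at an unadjusted p below 0.05), with a wider exclusion of other classes (415), within the limit (295) or with matched depth (375).

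Replicate numbers did not pair the libraries: same-numbered control and ALP libraries had deviations that correlated at -0.0419, -0.0548 and -0.06 over 7746 genes. With the replicate block, edgeR called 0 genes in members (946 at an unadjusted p below 0.05; DESeq2 without the block called 79), 1 in BCAS1-lacking precursors and 0 over all precursors (1759).

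For single genes, 721 of 906 alternative values over 45 results kept direction and side, 130 lost the call, 34 gained one and 21 turned. FRMD4A turned from -0.33 to 0.0594 without large nuclei, 0.29 with matched depth, 0.0803 with 2 or more BCAS1 UMIs, 0.97 within the limit, 0.861 to 1.037 there without 1 library (1.035 and 1.0 without controls 1 and 3, 0.873 and 1.007 without ALP 1 and 3), 0.0188 there without 10 or more BCAS1 UMIs and 0.65 there with matched depth. OLIG1 turned to -0.0538 within the limit, to -0.0621, -0.0208 and -0.109 there without controls 1 to 3, to -0.0372, -0.0791 and -0.00703 there without ALP 1 to 3, and to -0.0192 there without 10 or more BCAS1 UMIs. BCAS1 over all precursors turned to -0.0694 without large nuclei. The causes were not tested. With 3 libraries a group and members of 1639 to 2242 median UMIs, low genes and small differences can be missed. On simulated data for ALP against control in members, 43.5% of genes changed by a log2 fold of 1 were recovered. At a log2 fold of 2 it was 96.7%.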
